A study of Homo sapiens with 9 samples.

Results

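NETO1 and CBLN2 are neighbouring genes on human chromosome 18 with gene-poor stretches to either side, and their contacts were described here in growing fibroblasts and in fibroblasts in RAS-induced senescence (RIS). The members are these 2 genes of 18851 protein-coding genes with a value, and the region around them, chr18:69000001-73000000 in hg19, held 99 bins of 40 kb with values of 77404 bins in all. CBLN2 lies at chr18:70203915-70305756 and NETO1 at chr18:70409549-70535381, both on the minus strand. A core of 38 bins, chr18:70320001-71840000, starts between the genes, holds NETO1 and ends just past FBXO15 and TIMM21, while CBLN2 lies outside it. The members were chosen by the measured difference in contact between RIS and growing cells in these same libraries, so every such difference at this locus is given as a description with no test.

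The cells were IMR90, a line of human lung fibroblasts, carrying ER:HRAS G12V, an oncogenic HRAS fused to the oestrogen receptor so that 4-hydroxytamoxifen (4OHT) switches it on. The 3 growing libraries received no 4OHT, and the 2 RIS libraries received 100 nM for 6 days. Growing and RIS cells shared the construct, and growing replicate 3 carried an MSCV Vector besides. No library of growing cells with 4OHT but without the fusion was analysed here, so 4OHT and RAS cannot be told apart by these groups.

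Hi-C joins and sequences DNA ends that lie close together in the nucleus. Contacts concentrate within domains, whose borders they cross less often, and on a larger scale active A and inactive B compartments each contact their own kind. NETO1 encodes an auxiliary subunit of kainate and NMDA glutamate receptors, and CBLN2 encodes a cerebellin, a secreted protein that bridges neurexins and delta glutamate receptors at synapses. Both are known mainly from neurons. Their neighbours past the gene-poor stretch include FBXO15, an F-box protein, TIMM21, a part of the mitochondrial import machinery, CYB5A, a cytochrome b5, and the dipeptidases CNDP1 and CNDP2.

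Many domain borders hold binding sites of CTCF, a zinc finger protein that halts cohesin. The letters AGGGGGCG, the core of its motif, were searched on both strands, and the matches in the 2 genes and in the bin just past the right edge of the core are shown because these places frame the contacts described next. Capitals mark the motif, and each line is written 5′ to 3′ on the strand of the match in hg19.
CBLN2 intron, chr18:70210483-70210512, minus strand: tgtgggcggcgAGGGGGCGgcttctctgcg
NETO1 intron, chr18:70445177-70445206, minus strand: gagtatttgcaAGGGGGCGcactgcagaga
NETO1 intron, chr18:70522490-70522519, minus strand: gtagaagggccAGGGGGCGcagagccttgt
NETO1-DT intron, chr18:70535749-70535778, minus strand: gagggagggagAGGGGGCGcccagttcctt
past the right edge, chr18:71847864-71847893, plus strand: ttgaagaacaaAGGGGGCGttcctggagac
past the right edge, chr18:71872103-71872132, plus strand: ggggatgggtgAGGGGGCGagaagaagggg

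The match in NETO1-DT lies 382 bases before the start of NETO1. All 4 matches in the gene bins read on the minus strand, while both matches past the right edge read on the plus strand. Of the 4 bins of NETO1, 2 held a match, and of the 3 bins of CBLN2, 1 did, the one farthest from the core. The 2 bins between the genes, at the left edge of the core, held none. Other matches of the region are not shown. The core held one in 5 of 38 bins and the region in 18 of 99 (18.2%), against 428 of 1870 bins (22.9%) of chromosome 18. A match is a run of letters and not a measured binding site.

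The libraries held between 109967509 contacts in RIS replicate 1 and 180775315 in growing replicate 3, as recovered from the balanced values. Growing replicate 3 and RIS replicate 2 had many duplicate reads and the other 3 libraries few, so each difference was also taken within these 2 classes. The many-duplicate difference is thus 1 library against 1, and the few-duplicate class holds only RIS replicate 1 for RIS. Growing replicate 3 also carried the MSCV Vector, which the label of RIS replicate 2 does not give. Duplicates and vector thus cannot be told apart among growing libraries, nor condition and vector in the many-duplicate difference. Contact is given as log2 of observed over expected. Expected is the mean at the same distance on the same chromosome of the same library, and 0 is the chromosome's average. For the locus this is chromosome 18, and for windows, runs of bins and genes elsewhere it is their own chromosome. Coverage before balancing overlapped between growing and RIS in the core, both genes and their flanks, with differences from -0.031 to 0.052 on the log2 scale.

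The core was a strongly enriched domain in every library. Its contact was 0.67, 0.69 and 0.72 in growing replicates 1 to 3, against 0.50 and 0.52 in the pair of RIS replicates. The growing level lay above that of 98.7% of 67806 windows of the same length. No RIS value reached the lowest growing value, with means of 0.69 ± 0.028 (SD, n = 3) and 0.51 ± 0.015 (SD, n = 2) and a difference of -0.18. RIS lay below growing in 33.7% of all windows, 11.1% of windows differed by as much or more in that direction, and the median window differed by 0.011. The difference was -0.18 among few-duplicate libraries and -0.20 among many-duplicate libraries.

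The label of a shared domain did not hold for CBLN2. The bin just inside the left edge, which starts at 70320001, contacted the core at -0.16, -0.057 and -0.027 in growing cells against -0.26 and -0.20 in RIS. The bin just outside, which holds the 5′ end of CBLN2, did so at -0.51, -0.73 and -0.57 in growing cells against -0.99 and -0.96 in RIS. At the right edge the last bin inside stood at 0.93, 0.96 and 1.00 in growing cells against 1.11 and 1.06 in RIS, and the first bin outside still at 0.53, 0.64 and 0.62 against 0.69 and 0.71.

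CBLN2 and NETO1 contacted each other less than sequences at that distance usually do. Their contact was -1.05, -0.98 and -1.26 in growing replicates 1 to 3, against -1.27 and -1.29 in the pair of RIS replicates. Growing replicate 3 was nearly as low as the RIS libraries. The difference of -0.18 was -0.25 among few-duplicate and -0.030 among many-duplicate libraries, the latter being growing replicate 3 against RIS replicate 2 alone.

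**Figure D1:**
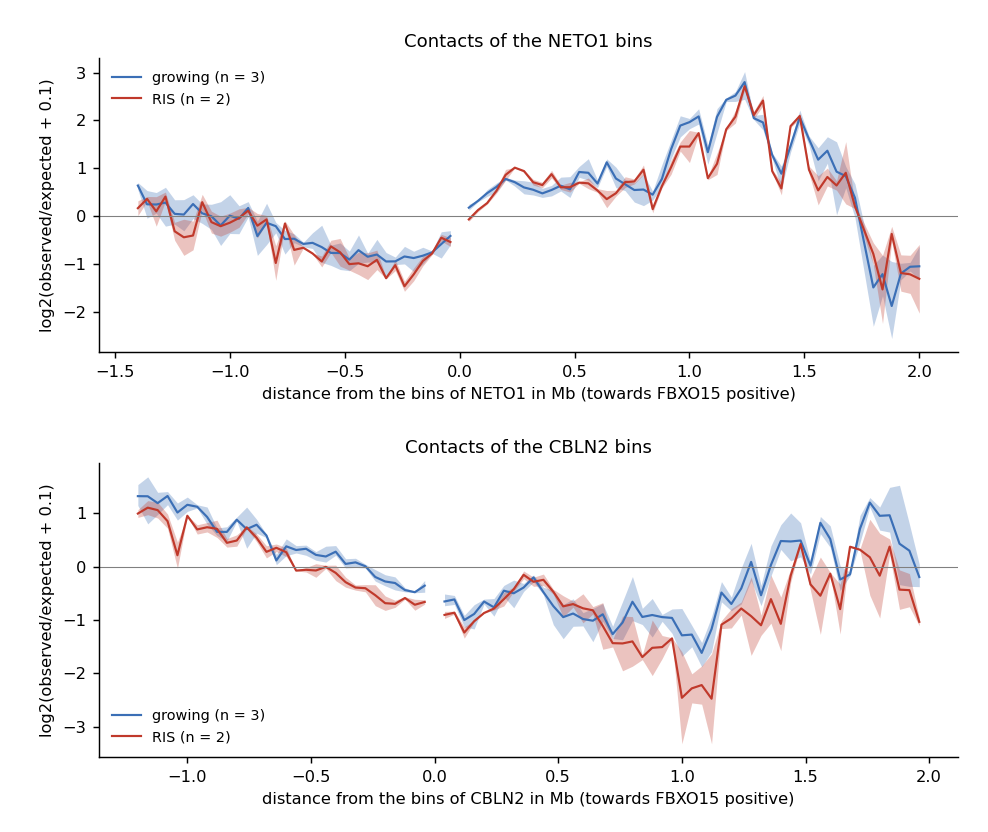
Contact of the NETO1 bins (upper panel) and of the CBLN2 bins (lower panel) with each 40 kb bin between 69 and 73 Mb and within 2 Mb, as log2 of observed over expected plus 0.1, against the distance in Mb from the gene. Lines are the means of 3 growing and 2 RIS libraries and bands span the lowest to the highest library. NETO1 peaks at the FBXO15 bins, beyond 1 Mb, in both conditions. CBLN2 lies lower in RIS over most of the left side and over parts of the right.

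NETO1, the receptor subunit, made its strongest contacts beyond 1 Mb, at the far end of the core. In the bin starting at 71760001, within FBXO15, observed over expected was 8.02, 7.59 and 5.33 in growing replicates 1 to 3, against 6.79 and 6.16 in the pair of RIS replicates. Contact in this bin was high in all 5 libraries, and growing replicate 3 had the lowest value. In growing replicate 3 the bin at 71680001 stood slightly higher, at 5.44. With the 3 bins of FBXO15 and TIMM21 together, NETO1 stood at 2.59, 2.48 and 2.35 on the log2 scale in growing cells against 2.40 and 2.21 in RIS, which overlapped. The NETO1 bin nearest CBLN2, which starts at 70400001 and holds the 3′ end of the gene, had the highest values. There observed over expected was 10.5, 9.78 and 7.88 in growing cells against 8.06 and 8.98 in RIS. The bin at 70520001, which holds the start of NETO1, reached 4.11, 3.06 and 2.92 in growing cells against 3.15 and 1.88 in RIS.

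The contact of NETO1 with the gene-poor flank between it and FBXO15, 29 bins, was lower in RIS. It was 0.95, 0.98 and 1.09 in growing cells against 0.76 and 0.77 in RIS, a difference of -0.24 with no overlap. Within that flank itself contact was 0.49, 0.53 and 0.53 in growing cells against 0.25 and 0.26 in RIS, a difference of -0.26. That did not overlap either, so the lower contact of the flank was not particular to NETO1. The flank was then divided at 71440001, after the values were seen. With the far part, next to FBXO15, NETO1 stood at 1.86, 1.88 and 1.95 in growing cells against 1.32 and 1.35 in RIS. That difference, -0.56, was -0.56 among few-duplicate and -0.60 among many-duplicate libraries. With the near part it stood at 0.48, 0.52 and 0.66 in growing cells against 0.52 and 0.53 in RIS, which overlapped. With this division the gap was wider in the far part, while of the 22 bins of the near part 8 were lower, 4 higher and 10 overlapped.

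Bin by bin, 84 bins of the region lay within 2 Mb of NETO1. RIS was below growing, with no overlap, in 25 of them (29.8%) and above in 9 (10.7%), and the other 50 overlapped. Over all runs of bins as long as NETO1 the shares were 20.3% and 16.0%. Without RIS replicate 1 the counts for NETO1 were 41 lower and 16 higher, and without RIS replicate 2 they were 35 and 17. Groups with fewer libraries separate more easily, and the shares over all runs were not taken for these settings. All 7 bins of the far part were lower, but that part was cut after these values were seen. An example is the bin at 71680001, with observed over expected of 5.29, 5.16 and 5.44 in growing cells against 3.48 and 3.35 in RIS. Contacts were higher in 4 bins of the near part, as at 70800001, with 1.41, 1.57 and 1.28 in growing cells against 1.85 and 1.79 in RIS. Just past the core, the bin at 71840001 was higher too, with 3.75, 4.27 and 3.38 in growing cells against 5.64 and 4.86 in RIS.

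Among genes past the core, NETO1 differed in both directions. With CYB5A it stood at 1.12, 1.12 and 0.84 in growing cells against 0.64 and 0.73 in RIS. With DIPK1C it stood at 1.18, 1.33 and 1.21 in growing cells against 0.65 and 0.58 in RIS, the widest gap among the genes with contacts in every library. With C18orf63, which lies between them, it stood at 1.69, 1.89 and 1.69 in growing cells against 2.00 and 1.91 in RIS. Its contacts with TIMM21, CNDP2, CNDP1, the zinc finger gene ZNF407 and the homeobox factor TSHZ1 overlapped. With PTGR3 it had 5, 6 and 14 contacts in growing cells and none in RIS replicate 2, so no difference is given. Within its own 4 bins NETO1 stood at -0.17, -0.16 and -0.047 in growing cells against -0.34 and -0.31 in RIS, a difference of -0.20 that became 0.0099 at 120 kb or more.

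CBLN2, the cerebellin, showed lower contacts in RIS on both sides. With the gene-poor left flank of 30 bins, chr18:69000001-70200000, it stood at 0.52, 0.46 and 0.42 in growing cells against 0.14 and 0.20 in RIS, a difference of -0.30. With the flank beyond NETO1 it stood at -0.83, -0.89 and -0.92 in growing cells against -1.28 and -1.28 in RIS, a difference of -0.40. With the genes from FBXO15 onwards it stood at -0.20, -0.50 and -0.21 in growing cells against -0.83 and -0.82 in RIS, a difference of -0.52. None of the 3 overlapped. The left flank was also lower in RIS within itself, by -0.25, and with the flank beyond NETO1, by -0.35, both without overlap. Lower contact on both sides was thus not particular to CBLN2. Contact among the 3 bins of CBLN2 was -0.65, -0.66 and -0.52 in growing cells against -0.74 and -0.79 in RIS. These did not overlap either. That difference of -0.16 was -0.089 among few-duplicate and -0.28 among many-duplicate libraries, and -0.050 on recovered contacts without balancing.

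In the profile of CBLN2, 44 of 79 bins (55.7%) were lower in both RIS libraries than in all growing libraries and 4 (5.06%) higher. Over all runs of bins as long as CBLN2 the shares were 19.0% and 15.0%. Without RIS replicate 1 the counts for CBLN2 were 56 lower and 9 higher, and the shares over all runs were not taken for that setting. Of the 30 bins of the left flank 22 were lower and 1 higher. Of the 22 bins of the near part of the right flank only 6 were lower, 2 were higher and 14 overlapped. Of the 7 bins of its far part 3 were lower and 4 overlapped. At 69240001 observed over expected was 2.06, 2.14 and 2.05 in growing cells against 1.43 and 1.63 in RIS. At 69960001, nearer the gene, it was 0.74, 0.86 and 0.73 in growing cells against 0.50 and 0.69 in RIS. On the other side the bin at 71680001 went from 1.63, 1.15 and 1.16 in growing cells to 0.24 and 0.57 in RIS, with 40, 34 and 37 contacts against 4 and 13. Unlike NETO1, CBLN2 had no bin at the FBXO15 end above 2 in any library, and its values there rest on few contacts.

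**Figure D2:**
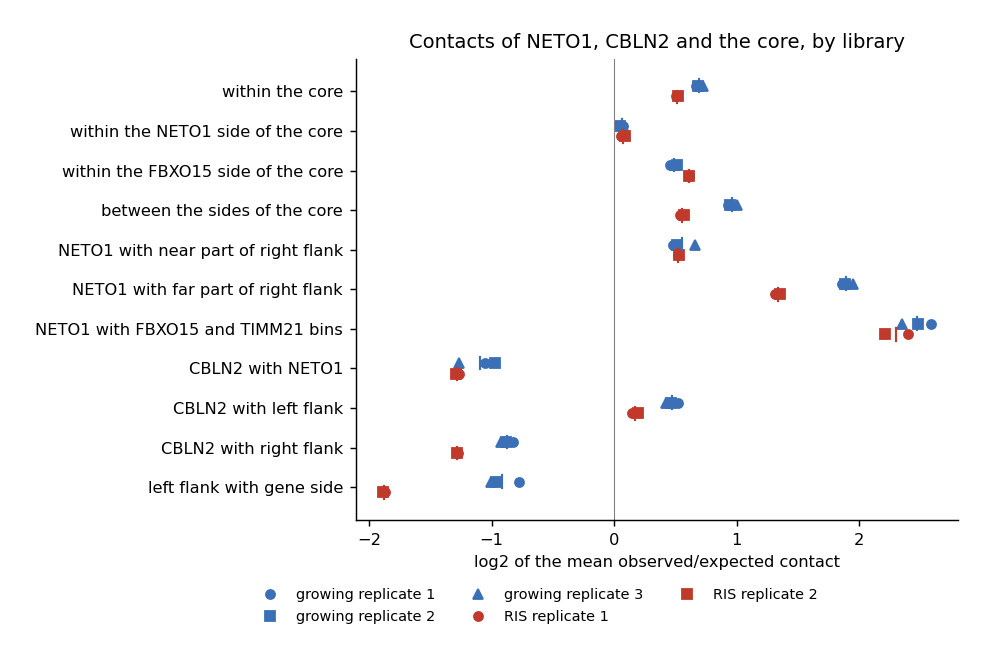
Contact between stretches of the region as log2 of the mean observed over expected, where 0 is the average of chromosome 18 at that distance. Each point is 1 library, 3 growing (blue) and 2 RIS (red), and vertical bars are group means. NETO1 with its far flank, the FBXO15 side of the core, the pairs between its sides and CBLN2 with its flanks separate between conditions. Contact within the NETO1 side and of NETO1 with FBXO15 and TIMM21 overlaps.

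The core did not lose contacts evenly. Between bins 40 to 200 kb apart contact was 0.075, 0.11 and 0.12 in growing cells against 0.099 and 0.11 in RIS, and at 240 to 480 kb it overlapped too. At 520 to 960 kb contact was 0.72, 0.75 and 0.81 in growing cells against 0.48 and 0.51 in RIS. At 1000 kb or more contact was 1.67, 1.64 and 1.67 in growing cells against 1.27 and 1.30 in RIS, a difference of -0.37.

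The compartment score, described further on, turned from B to A within the core, at 70920001 in 4 libraries and at 70800001 in growing replicate 3, and 70920001 was used to divide the core after the values were seen. Between the NETO1 side and the FBXO15 side contact was 0.93, 0.94 and 1.01 in growing cells against 0.54 and 0.57 in RIS, a difference of -0.41. It was lower in RIS in each class of distance, by -0.16 at 40 to 200 kb, -0.35 at 240 to 480 kb, -0.47 at 520 to 960 kb and -0.37 at 1000 kb or more. Within the FBXO15 side contact was higher in RIS, at 0.46, 0.51 and 0.49 in growing cells against 0.61 and 0.61 in RIS. Within the NETO1 side it overlapped, at 0.068, 0.045 and 0.076 in growing cells against 0.053 and 0.086 in RIS, but was lower in RIS at 40 to 200 kb, by -0.13, and higher at 240 to 480 kb, by 0.13. NETO1 itself, with all bins of its own side, its own included, stood at 0.23, 0.24 and 0.25 in growing cells against 0.26 and 0.30 in RIS. With the FBXO15 side it stood at 1.43, 1.43 and 1.50 in growing cells against 1.18 and 1.13 in RIS. Contact between the 2 sides was thus lower in RIS, while contact within the FBXO15 side was higher.

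The left flank followed CBLN2. Its contact with the FBXO15 side of the core was -0.85, -1.03 and -1.11 in growing cells against -1.70 and -1.81 in RIS, a difference of -0.76. With the genes from FBXO15 onwards it was -0.78, -0.97 and -1.01 in growing cells against -1.87 and -1.89 in RIS, the widest gap between any 2 stretches measured here, -0.96. With the NETO1 side it overlapped, at -0.23, -0.34 and -0.63 in growing cells against -0.44 and -0.38 in RIS.

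**Figure D3:**
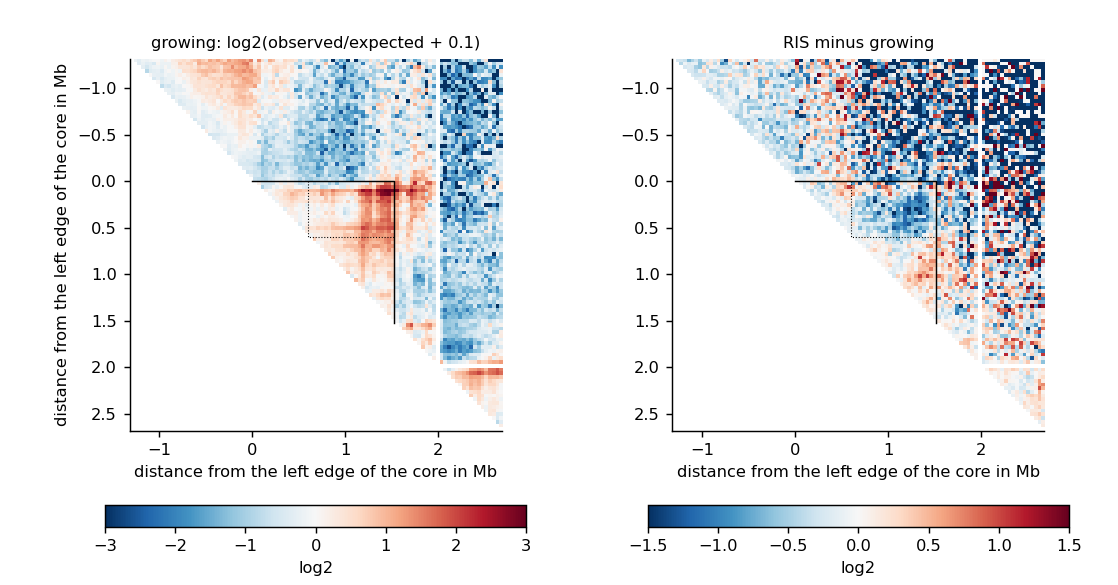
Contact map of the region, with the left panel the growing mean (n = 3) of log2 of observed over expected plus 0.1 and the right panel RIS (n = 2) minus growing; both axes give the distance in Mb from the left edge of the core. Solid lines frame the core and dotted lines the pairs between its 2 sides, which are lower in RIS, as are the pairs of the left flank with the right part of the map; white stripes are bins without values.

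The insulation score gives the contact across a point within 520 kb, and its minima are borders. Borders at 70320000, between CBLN2 and NETO1, at 71840000, past TIMM21, at 72280000 and at 72920000 were found in all 5 libraries. At a prominence of 0.2 that at 72920000 did not pass in RIS replicate 1. In a 1000 kb window the left border lay at 70400000 in growing replicate 1 and at 70360000 in growing replicate 3, and at 70320000 in the other 3 libraries. At 70320000 the score was -0.83, -0.89 and -0.98 in growing cells against -1.08 and -1.07 in RIS. At 71840000 it was -0.49, -0.55 and -0.51 in growing cells against -0.50 and -0.55 in RIS, which overlapped. Both edges of the core were thus present in growing and RIS cells. A further minimum at 70800000, between NETO1 and the turn to A, was found at 520 kb in both RIS libraries, with prominences of 0.11 and 0.16, and in no growing library. At 520 kb it did not pass a prominence of 0.2. In a 280 kb window the same minimum was found in all 5 libraries, with prominences of 0.39, 0.35 and 0.36 in growing cells against 0.53 and 0.54 in RIS, so its absence from growing cells depends on the window.

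Over the 16 positions from 70720000 to 71320000, whose windows reach into both sides of the core, the score was lower in RIS without overlap, as it was at 36.2% of 1834 positions of chromosome 18, while 39.4% were higher. Neighbouring positions share most of their pairs, so such runs are not separate measurements. At 71000000 it was 0.28, 0.32 and 0.43 in growing cells against -0.053 and -0.014 in RIS. The 9 positions over NETO1, from 70360000 to 70680000, all overlapped. All 31 positions of the left flank up to CBLN2 were lower in RIS, as at 70000000, with -0.17, -0.17 and -0.15 in growing cells against -0.52 and -0.49 in RIS. Of the 12 positions at the FBXO15 side of the core 10 were higher, as at 71520000, with 0.014, 0.097 and 0.097 in growing cells against 0.39 and 0.33 in RIS.

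**Figure D4:**
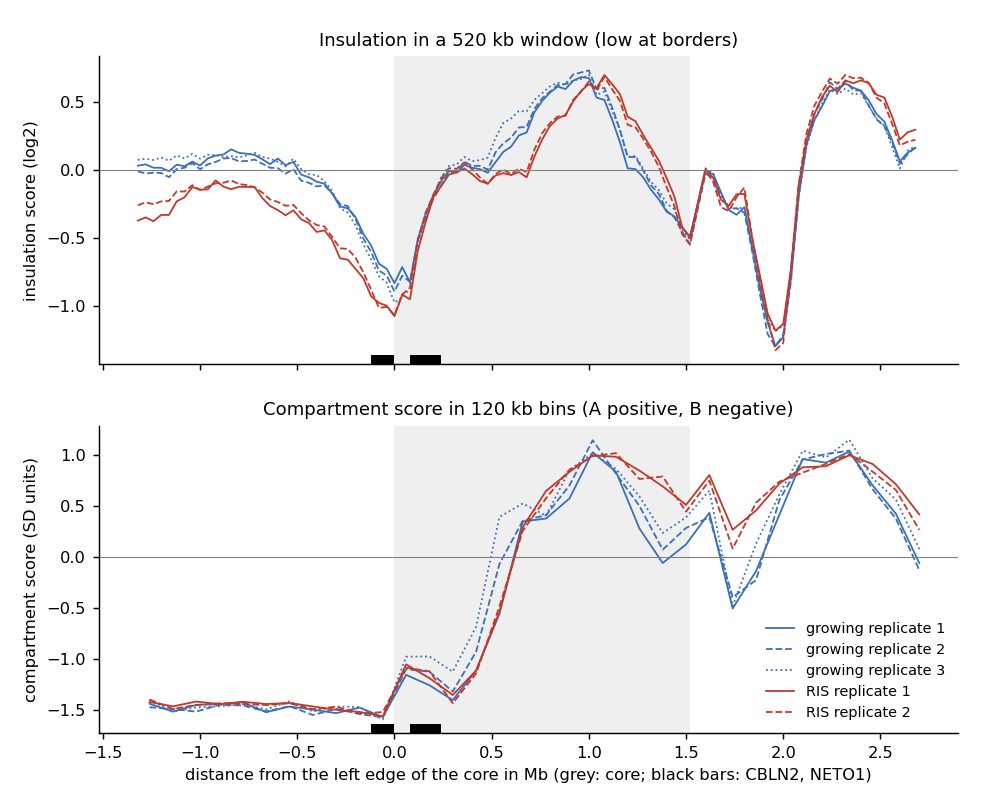
Insulation score in a 520 kb window (upper panel, log2) and compartment score in 120 kb bins (lower panel, in SD units, A positive) against the distance in Mb from the left edge of the core, 1 line for each of 3 growing (blue) and 2 RIS (red) libraries. The core is shaded and black bars are CBLN2 and NETO1; RIS lies lower over the left flank and the middle of the core, and higher in compartment score towards FBXO15 and beyond.

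By compartment score, in SD units of each library, both genes lay in B. The score is the first component of the contact map, whose correlation with gene density had a size of 0.28, 0.28 and 0.29 in growing cells against 0.33 and 0.33 in RIS. For the second component it was 0.24, 0.27 and 0.29 in growing cells against 0.10 and 0.10 in RIS, and in growing replicate 3 it followed gene density as closely as the first. CBLN2 stood at -1.57, -1.57 and -1.59 in growing cells against -1.56 and -1.52 in RIS, a difference of 0.037 that became -0.0067 in 80 kb bins. NETO1 stood at -1.21, -1.11 and -0.97 in growing cells against -1.12 and -1.10 in RIS, which overlapped. Both genes scored below 0 in all 5 libraries. The bin at 70800001 varied most among growing cells, at -0.55, -0.067 and 0.39, against -0.54 and -0.48 in RIS cells. From 71520001 to 72360000, over FBXO15, TIMM21, CYB5A and the dipeptidase genes, all 7 bins scored higher in RIS without overlap, as did 52.6% of the bins of chromosome 18, where 11.5% were lower. The bins just past them, at 72360001, 72480001 and 72600001, scored lower in RIS without overlap. That at 72360001 stood at 0.96, 0.96 and 1.04 in growing cells against 0.88 and 0.83 in RIS. Within the core the bins at 70920001 and 71280001 were lower too. The bin from 71640001, at the far flank of NETO1, went from -0.057, 0.074 and 0.24 in growing to 0.69 and 0.79 in RIS cells. The median difference over 624 bins of chromosome 18 was 0.087, with an SD of 0.21.

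Beyond 2 Mb both genes contacted B bins of chromosome 18 more often in RIS. NETO1 stood at 0.92, 0.82 and 0.64 with B bins in growing cells against 1.23 and 1.21 in RIS, a difference of 0.42, and its contacts with A bins overlapped. CBLN2 stood at 1.46, 1.52 and 1.44 with B bins in growing cells against 1.74 and 1.78 in RIS. With A bins CBLN2 stood at -1.16, -1.04 and -1.14 in growing cells against -1.76 and -1.49 in RIS. The left flank did likewise with A bins, at -1.33, -1.26 and -1.21 in growing cells against -1.95 and -2.02 in RIS. With B bins the left flank was higher in RIS by 0.21 and the right flank by 0.34, both without overlap, so that rise was not particular to the genes. The stretch from FBXO15 onwards overlapped with B bins. The core as a whole was higher with both, by 0.24 with A bins and 0.32 with B bins.

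Pairs of bins were also fitted one by one over the genome. By limma on balanced values 1205 of 2087248 pairs, 0.0577%, differed at 5%, and 0 without any 1 of the libraries. By limma voom on recovered contacts 1.17% were called, 0.378% lower and 0.789% higher in RIS. Counts of calls among the pairs of the core and of the 2 genes are not given, since the same contrast chose them. Their contacts are described in place of these counts. Of the 340 pairs of sufficient contact between the NETO1 and FBXO15 sides, 280 were lower in RIS by voom (all pairs: 50.3% by limma). That 50.3% comes from fitted values on balanced contacts, while by voom 1045119 of all 2087248 pairs had a lower fitted value. Within the FBXO15 side 105 of 253 were lower by voom, and within the NETO1 side 60 of 105. The same contrast chose these pairs of the core, so their counts are a description with no test. The next pairs were picked for wide gaps from those called by voom between the sides, so they are examples and no support. The pair of bins at 70640001 and 71360001 had 16, 32 and 29 contacts in growing cells against 4 and 3 in RIS. The bins at 70600001 and 71600001 had 22, 35 and 20 contacts in growing cells against 4 and 5 in RIS. These contacts are not scaled for depth, and each RIS library held fewer contacts in all than any growing library.

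To compare genes with each other, the contact of each gene with the bins within 1 Mb was taken as 1 value. NETO1 stood at 0.16, 0.18 and 0.24 in growing cells against 0.038 and 0.10 in RIS, a difference of -0.12 with no overlap. Its growing level was above that of 85.3% of genes, and 20.6% of genes had a lower difference. CBLN2 stood at -0.23, -0.25 and -0.24 in growing cells against -0.50 and -0.44 in RIS, a difference of -0.23. Its growing level was above that of 45.1% of genes, and 8.17% of genes had a lower difference. Over all genes 25.5% were lower and 31.5% higher without overlap, and the median difference was 0.0092. Counted within 500 kb in place of 1 Mb, NETO1 differed by 0.015.

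The neighbours on the far side of the core went the other way. FBXO15 stood at 0.22, 0.25 and 0.28 in growing cells against 0.35 and 0.35 in RIS, and TIMM21 at 0.16, 0.18 and 0.29 in growing cells against 0.34 and 0.31 in RIS. C18orf63, ZNF407 and TSHZ1 were also higher in both RIS libraries, DIPK1C was lower, and CYB5A, CNDP2, CNDP1 and PTGR3 overlapped.

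Genes of the same synaptic pathway were taken as a list of 15, with NETO2, the other cerebellins, and subunits of kainate, NMDA and delta receptors and neurexins, of which GRIN1 has no value. Its genes were tested in the fit over all genes, in which 23.3% of genes were called at 5%. The list was drawn up with earlier results of these data known, so its counts and p-values are not independent evidence. Of the 14 measured, 3 fell and 1 rose, and the median difference of 0.018 was close to that of all genes. By non-overlap 4 were lower and 4 higher in RIS, beside 25.5% lower and 31.5% higher of all genes. The count of 4 called became 2 without growing replicate 1 or either RIS replicate, 3 without growing replicate 2 or 3, and 7 with the bins within 500 kb. Of all genes 7.26% to 10.8% were called without 1 library and 17.4% within 500 kb.

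The kainate receptor subunits GRIK5, GRIK2 and GRIK1 fell, and of these GRIK2 passed under all 8 alternatives tried, GRIK1 under 7 and GRIK5 under 4. The replicate block gave the same differences as leaving out growing replicate 3, which is alone in its block, so they are not separate checks. GRIK5 stood at -0.32, -0.23 and -0.43 in growing cells against -0.65 and -0.63 in RIS, a difference of -0.31 (SE 0.062, adjusted p by limma 0.0193). GRIK2 stood at 0.65, 0.63 and 0.62 in growing cells against 0.31 and 0.39 in RIS (difference -0.28, SE 0.042, adjusted p by limma 0.0121). GRIK1 differed by -0.27 (SE 0.043, adjusted p by limma 0.0134). NRXN3, a neurexin and so a receptor of cerebellins, rose by 0.17 (SE 0.040, adjusted p by limma 0.0326), from 0.071, 0.0080 and 0.011 in growing to 0.21 and 0.18 in RIS cells. Its call was lost under each of the 8 alternatives, which left out 1 library, added the replicate block, used recovered contacts or took the bins within 500 kb (adjusted p by limma from 0.0588 to 0.198). GRIK5 lost its call on recovered contacts (adjusted p by limma 0.0595), without growing replicate 1 (0.0542) and without RIS replicate 1 (0.0719) or 2 (0.0601), and GRIK1 with the replicate block (0.0529). The next highest difference was that of the kainate subunit GRIK3, 0.15 (SE 0.051, adjusted p by limma 0.0709). The smallest were those of CBLN1, 0.0036, and of the delta receptor GRID1, 0.016. NETO2, the paralogue of NETO1, stood at 1.10, 1.14 and 1.13 in growing cells against 1.13 and 1.23 in RIS, which overlapped. The p-values measure the spread between these libraries, and how far their cultures were separate is not stated in the labels.

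**Figure D5:**
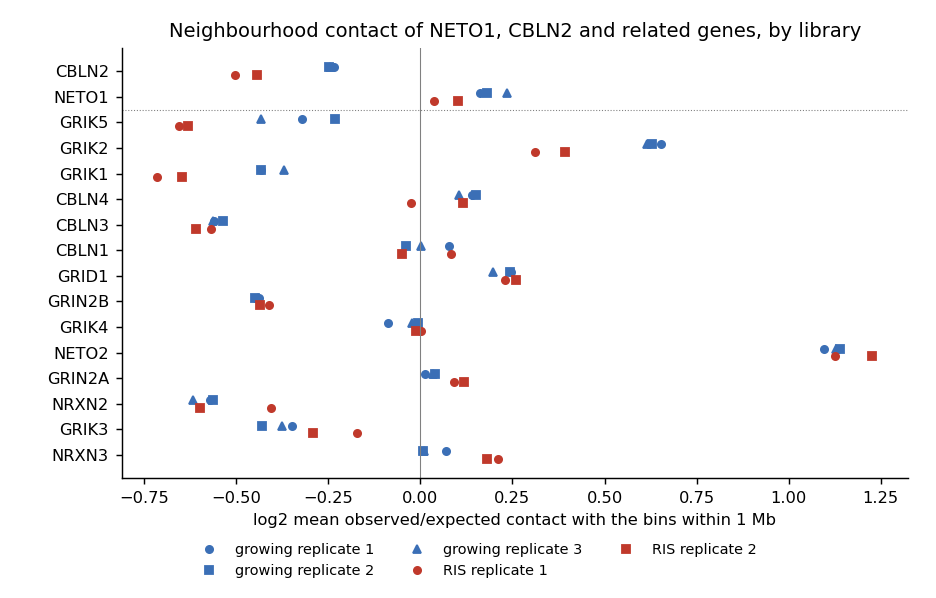
Contact of each gene with the bins within 1 Mb, as log2 of the mean observed over expected, for CBLN2 and NETO1 (above the dotted line) and the 14 measured genes of the list. Each point is 1 library, 3 growing (blue) and 2 RIS (red); GRIK5, GRIK2 and GRIK1 lie lower and NRXN3 higher in RIS, and most of the others overlap.

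By Euclidean distance over the 5 libraries, the genes of other chromosomes most like NETO1 in this value were CCDC92B on chromosome 17 at 0.0432, KCNH8, a potassium channel, on chromosome 3 at 0.0443, and LRFN5, a synaptic adhesion protein, on chromosome 14 at 0.0452. Those most like CBLN2 were IRAK3, a kinase-like regulator of interleukin receptor signalling, on chromosome 12 at 0.0401, and GHDC and HCRT, an orexin precursor gene, on chromosome 17 at 0.0536. GHDC and HCRT share a bin and hence have identical values.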

How the data were processed

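The data are Hi-C matrices of IMR90 cells with ER:HRAS G12V, 3 growing and 2 RIS. The 4 capture Hi-C libraries held 0 contacts in the region, so the comparison planned for them has no values. Reads had been checked with FastQC and mapped to hg19 by HiC-Pro, and artefacts and duplicate pairs taken out. The deposited signal is the contact of 2 bins of 40 kb after ICE balancing, with 200000000 in all per library. Balancing equalises the bins, so a gain or loss of all contacts of a bin cannot be seen. A single factor for each bin turned 100% of small values (up to 3 contacts, within 0.05) back into whole contacts, from which the depth was read.

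Contacts were divided by the mean at their distance on chromosome 18, or on their own chromosome for windows, runs of bins and genes elsewhere. Differences at the locus are descriptions. Pairs up to 2 Mb with a mean of at least 5 were tested with limma 3.58.1 in R 4.3.3 on log2 values plus 0.5 after loess (span 0.3, 4 iterations), and 1 value per gene with limma, both with Benjamini-Hochberg adjustment at 5%, after tests on simulated data. Borders are minima of insulation (520 kb, prominence 0.1), as TADbit was not at hand, and compartments the first component in 120 kb bins. Genes came from GENCODE lifted to GRCh37, of which 24 of 25 chromosomes had the lengths of the bins. Tables were made with Python 3.11.15, numpy 2.4.6, scipy 1.17.1 and pandas 2.3.3.

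Named are NETO1, CBLN2, every protein-coding gene of the region, those of the list past the threshold or with the 2 largest and 2 smallest differences, and the 3 nearest genes of other chromosomes by the value per gene. NETO2 was added after its value was seen, and 2 genes first put in the list are not reported here. The members and lists were chosen with earlier results of these data known. Alternatives changed the expected value, balancing, minimum distance, mean, core, windows, bins, pseudocount, minimum and scaling, used voom, a replicate block, or left out 1 library.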

Additional observations from a re-analysis of the deposited data

How the results depend on the processing

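With 2 RIS libraries the separation of groups is a weak criterion, 40 kb bins cannot place a contact within a gene, and values of CBLN2 beyond 1 Mb rest on few contacts. Leaving out each library in turn moved the contact within the core between -0.19 and -0.17, that of NETO1 with the right flank between -0.27 and -0.20, and that of CBLN2 with the left flank between -0.33 and -0.27. Bins of the NETO1 profile lower in RIS then numbered 28 to 41 and higher ones 11 to 17. Lower bins of CBLN2 numbered 49 to 56 and higher ones 5 to 9. Groups with fewer libraries separate more easily, and the shares over all runs were not taken for these counts. The core differed by -0.21 on recovered contacts and by -0.25 when shortened by 2 bins at both ends. Among many-duplicate libraries NETO1 with the right flank differed by -0.32, CBLN2 with NETO1 by -0.030, with the left flank by -0.22 and with the right flank by -0.36, the insulation at 70320000 by -0.092 and the compartment score of the core, with a main difference of 0.056, by -0.083. Among few-duplicate libraries CBLN2 with the left flank differed by -0.35. The mean of log2 values gave -0.46 for CBLN2 with the right flank. Among differences without overlap, signs turned for the contact within NETO1 at 120 kb or more, to 0.0099, for the compartment score of CBLN2 in 80 kb bins, to -0.0067, and for the neighbourhood of NETO1 within 500 kb, to 0.015. Among differences with overlap, signs also turned for the compartment score of the core, to -0.010 without growing replicate 1, for that of NETO1, from -0.013 to 0.039 among few-duplicate libraries and 0.048 with the replicate block, for NETO1 with the left flank, from -0.15 to 0.042 among many-duplicate libraries, and for the insulation at 71840000, from -0.0069 to 0.019 among few-duplicate libraries. The cause was not tested. In a 280 kb window insulation differed by -0.27 at 70320000 and -0.063 at 71840000, with 11 borders in the growing mean and 10 in the RIS mean, against 4 and 6 at 520 kb, and 3 in the RIS mean at a prominence of 0.2.

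Genome-wide, limma on balanced values called 2417 pairs with a pseudocount of 0.1, 0 with 2, 189 at a minimum of 10, 0 at a minimum of 1 and 0 without any 1 library. Voom called 24357 with all libraries, 8885, 16130 and 20264 without growing replicates 1 to 3, and 1806 and 1247 without the RIS replicates. Voom with the replicate block and voom without each library were chosen after seeing the data. Genes called numbered 2633 on recovered contacts and 1368 to 2045 without 1 library, with 2 to 3 of the list, which had 7 called within 500 kb, where 3284 of 18914 genes were.

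The groups share replicate numbers 1 and 2, which the labels do not tie to a culture or day. Deviations from the group means over 18851 genes correlated at -0.0040 for the libraries numbered 1 and -0.094 for those numbered 2. With the replicate block limma called 0 pairs, with 128435 at an unadjusted p under 0.05, voom 22210, and the fit of genes 1217, with 2 of the list. The alternatives planned for the capture libraries were not run, since these held no contacts in the region.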
